A study of Mus musculus with 12 samples.

Results

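Potassium channels let potassium ions leave the cell and so oppose firing, while HCN channels open when the membrane becomes more negative and carry an inward current that cyclic AMP strengthens. In the dorsal root ganglion (DRG), which holds the cell bodies of sensory neurons, voltage-gated potassium channels repolarise the action potential, the M-current of Kcnq channels and the leak current of K2P (tandem-pore) channels hold the resting potential, and HCN channels support repetitive firing. Auxiliary and silent subunits carry little or no current alone and tune the channels they join. The genes described here are the protein-coding genes whose symbol starts with Kcn, together with the HCN genes. Kcnj10 was left out. By this rule, which used no measured value, 97 of the 48795 gene IDs in the deposited count table were members. Of them, 81 passed a filter on low counts and were tested. The other 16, too scarce to test, were Kcna5, Kcna7, Kcna10, Kcne1 to Kcne4, Kcnj1, Kcnj5, Kcnj8, Kcnj13, Kcnk9, Kcnk15, Kcnk16, Kcnmb3 and Kcnv2.

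Total RNA was sequenced from primary DRG cultures of wild-type C57/Bl6 mice, which hold neurons together with glia, fibroblasts and other cells. One group of 4 cultures received at 50 nM a mix of antisense oligonucleotides (ASOs, short synthetic strands that pair with RNA) against GI-SINE RNA, growth-inducing transcripts of B2-SINE repeats as the submitters name them. A second group of 4 received a control ASO at 50 nM, and 4 cultures were left untransfected. Each of 4 mice gave 1 culture that was divided among the 3 conditions, so mouse was a term in every main model. There was no group with transfection alone, and the level of GI-SINE RNA was not analysed here.

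Library totals were 16416459 to 21250125 counts with the ASO mix, 14864622 to 22704267 with the control ASO and 16971091 to 22668448 in untransfected cultures. The mix library of mouse 4 stood apart on the first principal component, at 25.9 against 64.4 to 72.3 in the other mix libraries. Counts of called members without mouse 4 are given for both comparisons with the mix. Levels are counts divided by the scaled library size and given as CPM, listed for mice 1 to 4 in order. Fold changes are log2 values with their standard error (SE), and a gene was called when its Benjamini-Hochberg adjusted p from edgeR's quasi-likelihood test over all 16831 tested genes was under 0.05.

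Neuronal markers were abundant in every group, and fibroblast markers differed between groups. The 18 pan-neuronal markers summed to 11240 to 14108 CPM with the mix, 9460 to 11202 CPM with the control ASO and 8452 to 11018 CPM in untransfected cultures. With the mix, 11 of these markers were higher than with the control ASO and 2 lower (median log2 fold change 0.28). The 12 fibroblast markers summed to 54.8 to 85.5 CPM with the mix, 98.5 to 182 CPM with the control ASO and 753 to 957 CPM in untransfected cultures. Of 13 tested Schwann cell markers, 8 were lower and 2 higher with the mix than with the control ASO. Their sum was 1331 to 1709 CPM with the mix and 1283 to 1572 CPM with the control ASO, and for the 10 satellite glia markers it was 356 to 600 CPM with the mix and 367 to 516 CPM with the control ASO. Of 10 tested macrophage markers 2 were higher and 0 lower, and of 10 endothelial markers 0 were higher and 3 lower. No marker on these lists was at 0 in all libraries. In bulk RNA, fewer cells of a type and less RNA per cell cannot be told apart, and the part of cell makeup in the channel results was not tested.

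Per kilobase of exon, the most abundant member was Kcnab2, the cytoplasmic beta subunit that joins Kv1 channels. It stood at 165 ± 14.8 CPM per kilobase with the mix, 131 ± 8.10 with the control ASO and 115 ± 12.8 in untransfected cultures (SD, 4 libraries each). In untransfected cultures 9 other members reached 16.0 CPM per kilobase or more on average. Hcn2 was at 24.1 ± 2.34, the ERG-type channel gene Kcnh6 at 24.1 ± 3.41 and the K2P gene Kcnk12 at 24.0 ± 3.64 CPM per kilobase. These levels lay within each other's SD. Kcnip3 (22.7 ± 3.29), Kcnc4 (21.4 ± 1.43), Kcnip4 (19.0 ± 2.37), Hcn3 (18.5 ± 2.12), Kcna6 (16.1 ± 0.566) and Kcna1 (16.0 ± 1.42) followed, again with overlapping spreads between neighbours. Exons of all annotated transcripts were counted as length, so a level per kilobase is understated for genes with long alternative ends. Summed over all 97 members, the level was 3458 to 4018 CPM with the mix, 3115 to 3398 CPM with the control ASO and 2729 to 3177 CPM in untransfected cultures. Set against the summed pan-neuronal markers, the members came to 26.1% to 30.8% with the mix and 29.0% to 33.0% with the control ASO, lower with the mix in each of the 4 mice. Untransfected cultures stood at 28.8% to 32.3%.

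**Figure D1:**
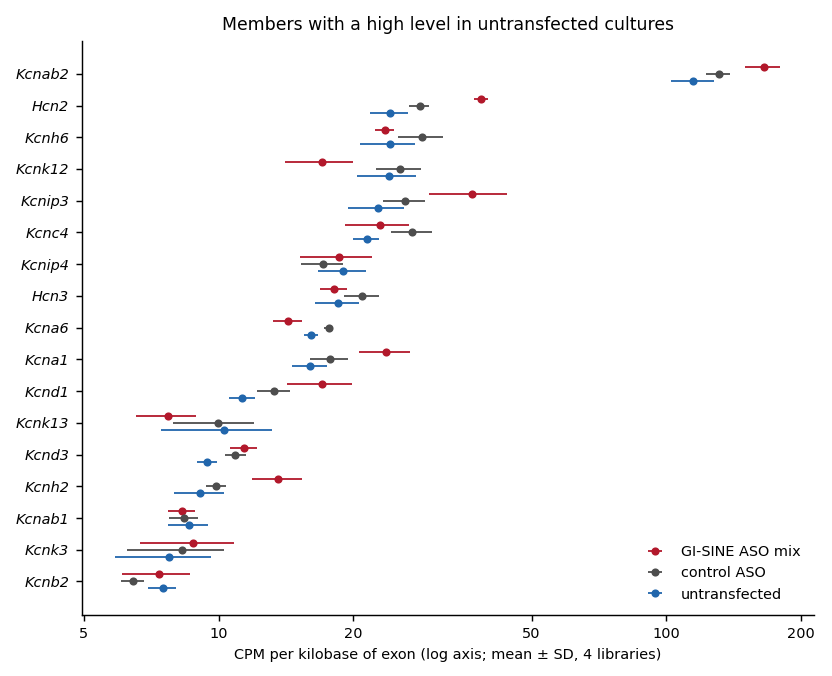
Level of abundant members in CPM per kilobase of exon (log axis), as mean ± SD of 4 libraries, for the ASO mix (red), the control ASO (grey) and untransfected cultures (blue). Kcnab2 leads at 115 CPM per kilobase in untransfected cultures, and Hcn2, Kcnh6 and Kcnk12 follow at about 24.

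The ASO mix was first set against the control ASO, a contrast between ASOs that target GI-SINE RNA and one that does not. Of the 81 tested members, 32 were higher and 15 lower with the mix. Among all tested genes 27.3% were higher and 28.8% lower, against 39.5% and 18.5% of the members, and the share changed in either direction (58.0%) was near that of all genes (56.2%). By at least 2-fold, 8 members were higher and 3 lower, against 4.97% and 3.28% of all tested genes. Kcnk7 and Kcnrg, among the 8, reached the low-count filter in all mix libraries and in no control ASO library. A rise was thus built into their testing. Kcnj16, among the 3, reached the filter in no mix library. The median log2 fold change was 0.16 over the tested members and -0.03 over all tested genes. By smallest p, the higher members began with the Kv3 gene Kcnc1, the silent subunit Kcns1 and the Kv1 gene Kcna2. The lower ones began with the calcium-activated channel Kcnn4, the silent subunit Kcng3 and the Kv1 gene Kcna6.

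When libraries were scaled on the pan-neuronal markers, which moved the median of all genes by -0.21, 23 members were higher and 24 lower. Higher calls were then 48.9% of the called members and 24.9% of all called genes, against 68.1% and 48.7% with the main scaling. Of 32 calls higher, 21 held in every alternative tried, and of 15 calls lower 7 did. Libraries of the mix and control groups did not overlap for 30 of the 81 tested members, all of them called. That share was near the 38.8% of all tested genes. The shift was smallest in mouse 4 for 35 of the 47 called members, and for 63.3% of all called genes. Without mouse 4, 36 members were higher and 16 lower, with a median log2 fold change of 0.23 over members and -0.02 over all genes. Higher calls were then 69.2% of the called members and 49.1% of all called genes.

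**Figure D2:**
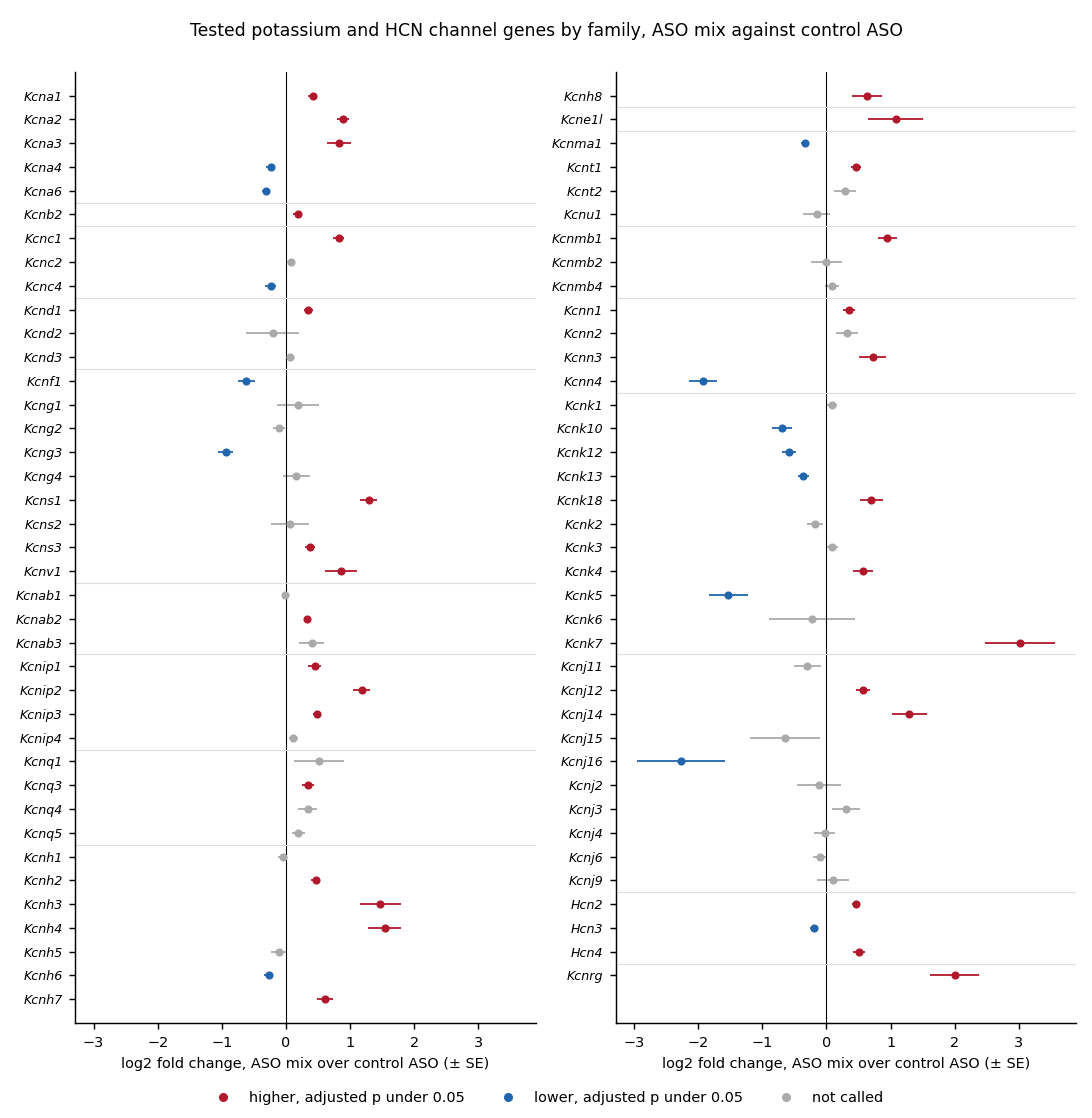
Log2 fold change of the ASO mix over the control ASO for tested members (points, with SE as bars), grouped by family between grey lines, with called members in red (higher) or blue (lower). Several families hold both directions, and the widest bars belong to scarce genes such as Kcnk7 (3.02) and Kcnj16 (-2.27).

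Kv1 genes encode low-threshold channels that delay and limit firing, and the 5 tested of 8 were all called, 3 higher and 2 lower. Kcna2 lies on GRCm38 chromosome 3, 107101146 to 107115005. It was at 123, 92.5, 158 and 123 CPM with the mix, against 61.4, 52.5, 68.4 and 87.5 CPM with the control ASO. Each mix library was above all control ASO libraries, and Kcna2 rose by 0.89 ± 0.09 (adjusted p = 1.14e-06). Its neighbour Kcna3 (107036169 to 107038070) was scarce, at 2.81 ± 0.521 CPM with the mix and 1.58 ± 0.359 CPM with the control ASO (SD, 4 libraries each), and rose by 0.83 ± 0.19. Kcna10, further along (107183056 to 107195721), had 6, 4, 16 and 4 counts with the mix, against 1, 1, 0 and 1 with the control ASO and 0 in each untransfected library. That was too few to test.

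A second Kv1 cluster, on chromosome 6, did not move as 1 unit. Kcna1 was at 122, 102, 130 and 99.6 CPM with the mix, against 94.4, 75.7, 80.0 and 87.7 CPM with the control ASO, and rose by 0.42 ± 0.07. Kcna6, on the same strand (126708329 to 126740674, against 126640397 to 126646384 for Kcna1), was at 76.6, 84.2, 86.9 and 91.5 CPM with the mix, against 106, 101, 107 and 104 CPM with the control ASO, and fell by 0.31 ± 0.06 on the log2 scale. Neither gene's groups overlapped. Over 39.6% of the exon length of Kcna6 an antisense gene is annotated, and the strand setting of the counting is not given in the sources used here. Kcna4, the inactivating Kv1 channel of small neurons, was at 30.5, 26.1, 31.6 and 31.5 CPM with the mix, against 38.4, 33.4, 37.8 and 31.7 CPM with the control ASO. Its fall of 0.24 ± 0.07 was not called without mouse 1, 2 or 3, or with the trend in length and GC content removed (highest adjusted p = 0.0702).

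Among the subunits that join Kv1 channels, Kcnab2 was at 933, 910, 1024 and 824 CPM with the mix, against 739, 712, 789 and 682 CPM with the control ASO, and rose by 0.33 ± 0.05 (adjusted p = 1.53e-05). Kcnab1 (-0.01 ± 0.06) and Kcnab3 (0.40 ± 0.20) were not called. Proteins that cluster Kv1 channels along the axon lie outside the symbol rule, and 9 of 12 such genes were higher and 3 lower. Among all tested genes 27.3% were higher and 28.8% lower, which is also the background for the partner lists below. By smallest p, the scaffold gene Dlg4 (0.60 ± 0.06) and Adam23 (0.55 ± 0.06) were higher, and the scaffold gene Dlg1 (-0.95 ± 0.11) was lower.

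The Kv3 family supports brief action potentials, and 1 of its 4 genes rose and 1 fell. Kcnc1 was at 38.0, 37.5, 41.4 and 41.7 CPM with the mix, against 23.2, 18.3, 21.7 and 27.4 CPM with the control ASO. Its 4 mix libraries sat in a narrow band above every other library, and it rose by 0.82 ± 0.08 (adjusted p = 3.44e-07). Kcnc4, a fast-inactivating member, was at 84.1 ± 13.8 CPM with the mix and 99.3 ± 10.4 CPM with the control ASO (SD, 4 libraries each). That fall of 0.24 ± 0.08 was not called without mouse 1, 2 or 3, or without mouse as a term.

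Kv2 channels are slow delayed rectifiers, and silent subunits act by joining them. The Kv2 gene Kcnb2 was higher by 0.18 ± 0.07, which became -0.03 when libraries were scaled on pan-neuronal markers and was not called without mouse 1 or 3. Of 9 tested silent subunit genes, 3 were higher and 2 lower. Kcns1 was at 14.5, 14.5, 19.5 and 18.5 CPM with the mix, against 5.90, 4.72, 6.45 and 11.3 CPM with the control ASO. All 4 mix libraries exceeded all control libraries, the control library of mouse 4 being the highest of its group, and Kcns1 rose by 1.29 ± 0.13 (adjusted p = 5.55e-07). Its relative Kcns3 rose by 0.37 ± 0.08, a call lost with scaling on pan-neuronal markers (adjusted p = 0.112). The Kv2 modifier Kcnv1 rose by 0.86 ± 0.25, a call lost without mouse 1. Kcng3 was at 6.50, 8.19, 8.21 and 11.6 CPM with the mix, against 15.8, 15.2, 18.2 and 16.1 CPM with the control ASO. Kcng3 fell by 0.94 ± 0.12 (adjusted p = 6.06e-06), with no overlap and with the smallest change in mouse 4. Kcnf1 was at 4.93 ± 0.529 CPM with the mix and 7.58 ± 0.903 CPM with the control ASO, and fell by 0.62 ± 0.13.

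**Figure D3:**
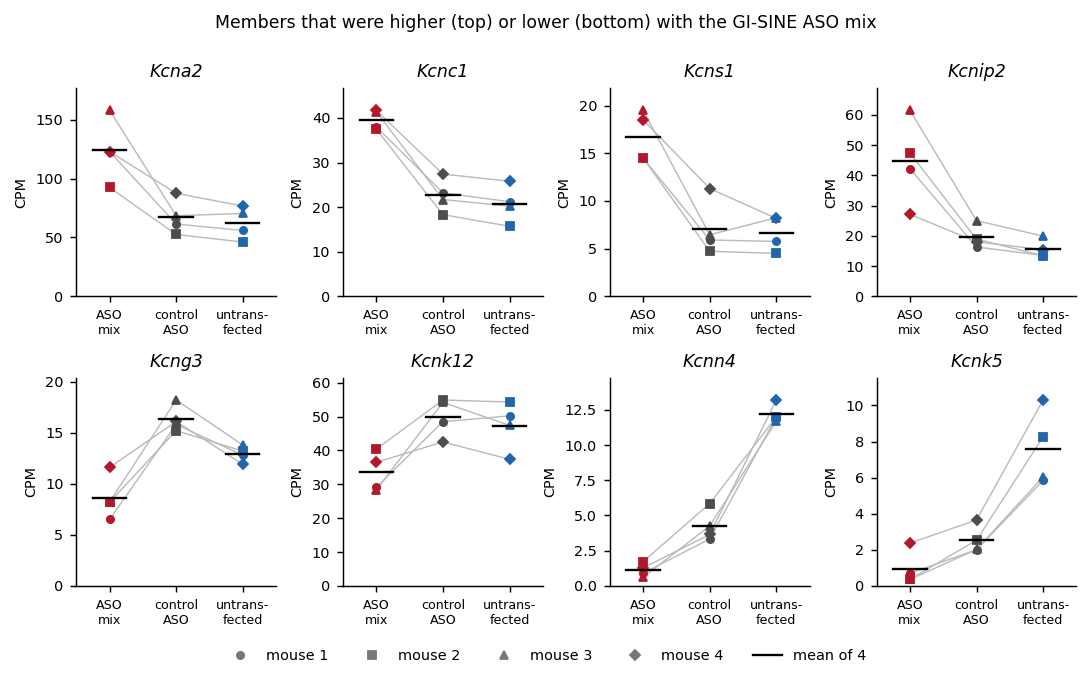
CPM in each library for 4 members that were higher (top row) and 4 that were lower (bottom row) with the ASO mix than with the control ASO; symbols mark mice, grey lines join libraries of 1 mouse and bars are means of 4. Kcnc1 lies at 37.5 to 41.7 CPM with the mix, above all other libraries, and Kcnn4 and Kcnk5 are lowest with the mix and highest in untransfected cultures.

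Windows around transcription starts were read from RefSeq (build GRCm38.p6, 250 bases before to 50 after a start) for the 70 members with an entry. The 4 below belong to the 2 members with the smallest p in each direction, and are shown because these genes lead the comparison. Capitals mark matches on either strand to the searched motifs, none of which overlap here.
Kcnc1, chr7:46396218-46396517, plus strand, higher with the mix: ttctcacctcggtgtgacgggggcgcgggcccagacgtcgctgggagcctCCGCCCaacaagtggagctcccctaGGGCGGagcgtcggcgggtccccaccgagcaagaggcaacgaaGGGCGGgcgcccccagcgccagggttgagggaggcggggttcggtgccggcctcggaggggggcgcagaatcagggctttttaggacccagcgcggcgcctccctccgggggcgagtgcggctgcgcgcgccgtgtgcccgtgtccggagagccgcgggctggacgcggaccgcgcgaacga
Kcns1, chr2:164171064-164171363, minus strand, higher with the mix: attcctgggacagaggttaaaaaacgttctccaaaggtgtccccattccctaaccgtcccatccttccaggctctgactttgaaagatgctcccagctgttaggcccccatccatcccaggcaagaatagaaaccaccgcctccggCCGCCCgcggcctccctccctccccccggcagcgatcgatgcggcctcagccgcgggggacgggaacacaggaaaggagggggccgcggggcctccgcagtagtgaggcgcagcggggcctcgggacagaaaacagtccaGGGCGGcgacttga
Kcnn4, chr7:24370013-24370312, plus strand, lower with the mix: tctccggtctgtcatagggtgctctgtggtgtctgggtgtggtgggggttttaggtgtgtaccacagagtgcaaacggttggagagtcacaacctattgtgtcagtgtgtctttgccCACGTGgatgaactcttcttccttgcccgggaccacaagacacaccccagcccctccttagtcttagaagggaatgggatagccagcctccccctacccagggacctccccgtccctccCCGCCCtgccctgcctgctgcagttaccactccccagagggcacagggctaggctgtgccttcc
Kcng3, chr17:83631846-83632145, minus strand, lower with the mix: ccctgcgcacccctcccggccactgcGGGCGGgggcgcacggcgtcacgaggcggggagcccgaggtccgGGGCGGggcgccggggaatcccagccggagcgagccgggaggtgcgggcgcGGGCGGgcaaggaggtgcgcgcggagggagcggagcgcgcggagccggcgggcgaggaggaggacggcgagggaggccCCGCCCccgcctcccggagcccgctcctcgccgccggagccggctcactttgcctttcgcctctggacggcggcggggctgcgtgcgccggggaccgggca

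Kcnc1, Kcns1 and Kcng3 start in windows rich in CG pairs (41, 22 and 49), and the Kcnn4 window has 6. The median was 7 over all windows and 9 over windows of members, whose median GC content was 58% against 52.7% over all windows. The GC box GGGCGG was found 3, 2, 4 and 1 times in Kcnc1, Kcns1, Kcng3 and Kcnn4, and Kcnn4 also holds the E-box CACGTG. Of all 32851 windows 35.7% hold a GC box and 7.15% this E-box, against 48.4% and 7.37% of the 95 windows of members. Counted per gene with a window, the GC box was in 19 of 24 higher members, 10 of 13 lower members and 44 of all 70 members. The share per gene over all genes was not computed, so these counts have no background beside them. The AP-1 site TGANTCA was in 4.21% of member windows and 7.81% of all, the TATA box TATAAA in 5.26% and 13.6%, and the left part of the RE1 element, TTCAGCACC, in 1.05% and 0.371%. No member window held the cAMP response element TGACGTCA, which 1.79% of all windows hold.

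Kv4 channels carry the fast A-type current and are tuned by cytosolic Kcnip proteins. With the mix, 3 of 4 Kcnip genes and 1 of 3 Kv4 genes were higher and none lower. Kcnip2 was at 42.2, 47.4, 61.5 and 27.1 CPM with the mix, against 16.3, 18.9, 25 and 18 CPM with the control ASO. Its lowest mix library, that of mouse 4, was only just above the highest control library, and Kcnip2 rose by 1.18 ± 0.13 (adjusted p = 1.08e-05). Kcnip3, a calcium sensor that also acts as a transcriptional repressor, rose by 0.48 ± 0.06 and Kcnip1 by 0.45 ± 0.10, while Kcnip4 (0.11 ± 0.07) was not called. Kcnd1 was at 88.2, 77.4, 111 and 82.9 CPM with the mix, against 65.5, 64.9, 74.4 and 76.2 CPM with the control ASO, and rose by 0.35 ± 0.07. Kcnd3, at 109 ± 7.66 CPM with the mix and 104 ± 5.71 CPM with the control ASO, was not called (0.06 ± 0.05). The calls of Kcnip1 and Kcnd1 were lost with scaling on pan-neuronal markers. Of 5 auxiliary proteins of Kv2 and Kv4 channels outside the symbol rule, 3 were higher and 1 lower. Dpp10, a membrane partner of Kv4 channels, rose by 1.04 ± 0.11.

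Kcnq3 and Kcnq5 contribute to the M-channel, a slow brake on repetitive firing. Kcnq5 was at 19.8, 12.6, 16.8 and 12.7 CPM with the mix, against 14.3, 12.4, 14.9 and 12.2 CPM with the control ASO. Its groups overlapped and it was not called (0.19 ± 0.10). Kcnq3 was at 38.1, 25.7, 42.9 and 28.4 CPM with the mix, against 29.7, 23.7, 25.6 and 26.2 CPM with the control ASO. It was called higher by 0.34 ± 0.09, with overlapping groups, and lost that call without mouse 3, without mouse as a term, and with library size or pan-neuronal scaling (highest adjusted p = 0.215). Of 12 genes that regulate the M-current, 4 were higher and 2 lower, among the higher ones the calmodulin genes Calm2 (0.69 ± 0.07) and Calm3 (0.43 ± 0.05).

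Of the 8 Kcnh genes, 5 were higher and 1 lower. Among the ERG-type genes, whose channels shape adaptation of firing, Kcnh2 rose by 0.46 ± 0.07. It was at 70.4, 61.1, 75.5 and 57.3 CPM with the mix, against 51.1, 45.0, 47.5 and 47.8 CPM with the control ASO. Kcnh7 rose by 0.61 ± 0.13, and Kcnh6, the most abundant of the family per kilobase, fell by 0.27 ± 0.07. The Kcnh6 call was lost without mouse 3 (adjusted p = 0.0680). The Elk-type genes Kcnh3 (1.47 ± 0.32) and Kcnh4 (1.54 ± 0.26) rose by more but were scarce, at most 3.55 CPM in any library. In the mix library of mouse 4, Kcnh3 was below the control library of that mouse.

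Calcium-activated and sodium-activated channels moved in both directions. Kcnn4 encodes the intermediate-conductance channel known from red cells and immune cells. It was at 0.899, 1.72, 0.608 and 1.28 CPM with the mix, against 3.33, 5.85, 4.26 and 3.65 CPM with the control ASO. No library overlapped, and Kcnn4 fell by 1.93 ± 0.22 on the log2 scale (adjusted p = 1.37e-06). The small-conductance genes Kcnn1 (0.35 ± 0.09) and Kcnn3 (0.72 ± 0.21) were higher. The Kcnn1 call was lost without mouse 2 and with scaling on pan-neuronal markers, and the Kcnn3 call without mouse 3. Of 4 tested genes for BK gamma subunits and sulfonylurea receptors, 0 were higher and 1, Abcc9, was lower (-0.49 ± 0.19). Kcnma1, the pore of the large-conductance BK channel, was at 75.4, 76.2, 71.8 and 63.5 CPM with the mix, against 98.3, 103, 93.7 and 68.2 CPM with the control ASO. Mouse 4 had the lowest value in both groups, and Kcnma1 fell by 0.33 ± 0.06, a call lost without mouse as a term or on removal of the trend in length and GC (highest adjusted p = 0.158).

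The BK beta subunit gene Kcnmb1, best known from smooth muscle, was at 17.0, 15.4, 20 and 9.43 CPM with the mix, against 7.80, 6.74, 8.95 and 8.28 CPM with the control ASO, and rose by 0.95 ± 0.15. In mouse 4 the difference was 0.19 on the log2 scale, against 1.11 to 1.18 in the other mice. Of 9 mural cell markers, 2 were higher and 4 lower in this comparison. Kcnt1, the sodium-activated channel Slack, was at 84.9, 88.9, 95.1 and 52.6 CPM with the mix, against 58.1, 61.0, 62.1 and 49.4 CPM with the control ASO. It rose by 0.46 ± 0.08, and mouse 4 alone showed little difference. Kcnt2 (0.29 ± 0.17) was not called.

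K2P channels set the leak current, and of 11 tested members 3 were higher and 4 lower. Kcnk12 and Kcnk13 encode the THIK channels. Kcnk12 was at 29.1, 40.4, 28.3 and 36.5 CPM with the mix, against 48.5, 54.9, 54.2 and 42.5 CPM with the control ASO, without overlap, and fell by 0.58 ± 0.11. Kcnk13 fell by 0.36 ± 0.08, a call lost without mouse as a term (adjusted p = 0.200). Kcnk10, of the mechanically and heat-sensitive TREK group, was at 4.51 ± 0.779 CPM with the mix and 7.26 ± 1.06 CPM with the control ASO, and fell by 0.69 ± 0.16. Its relative Kcnk2 was not called (-0.18 ± 0.13), and the third of the group, Kcnk4, rose by 0.57 ± 0.15. The Kcnk4 call was lost with scaling on pan-neuronal markers (adjusted p = 0.0505). An overlapping gene on the same strand covers 13.2% of the Kcnk4 exon length.

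Kcnk18 encodes TRESK, the calcineurin-regulated leak channel of nociceptors. It was at 3.30, 3.24, 5.42 and 4.26 CPM with the mix, against 3.10, 1.64, 2.98 and 2.23 CPM with the control ASO, and rose by 0.70 ± 0.18. Kcnk5, an acid- and alkali-sensitive member prominent in kidney, was at 0.700, 0.365, 0.355 and 2.37 CPM with the mix, against 2.00, 2.53, 2.02 and 3.65 CPM with the control ASO. It fell by 1.53 ± 0.30, and the mix library of mouse 4 alone lay within the control range. Kcnk3, at 34.8 ± 8.30 CPM with the mix and 32.9 ± 7.98 CPM with the control ASO, was not called (0.09 ± 0.09).

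Inwardly rectifying Kir genes were mostly scarce, and 4 of 14 were not tested. Kcnj12 was at 16.7, 18.1, 22.5 and 19.7 CPM with the mix, against 11.3, 11, 14.8 and 15.2 CPM with the control ASO, and rose by 0.57 ± 0.11. Kcnj14 rose by 1.29 ± 0.27 at 1.46 to 1.89 CPM with the mix. The G-protein-gated genes Kcnj3 (0.30 ± 0.22) and Kcnj6 (-0.10 ± 0.11) were not called. Kcnj16, known from glia and kidney, had 3, 0, 1 and 1 counts with the mix, against 6, 9, 3 and 10 with the control ASO. Its fitted fall of 2.27 ± 0.69 rests on these few counts and was not called without mouse 2 (adjusted p = 0.0503). The satellite glia markers of this comparison counted 1 higher and 5 lower of 9 tested.

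Of 5 Kcne genes, whose single-pass subunits modify other channels, only Kcne1l was tested. Its call higher was lost in 7 alternatives, among them leaving out mouse 1 or 3. Kcnk7 and Kcnrg were near silent without the mix. Kcnk7, a K2P gene with no known current of its own, had 18, 14, 15 and 8 counts with the mix, against 1, 2, 4 and 0 with the control ASO and 1, 1, 1 and 0 in untransfected cultures. It was higher by 3.02 ± 0.55 (adjusted p = 0.000129). Kcnrg, a regulator that binds Kv1 subunits, had 33, 21, 25 and 11 counts with the mix, against 6, 10, 6 and 2 with the control ASO, and was higher by 2.00 ± 0.38. Both start shortly after the end of a gene on the same strand, Kcnk7 1502 bases after Map3k11 and Kcnrg 1511 bases after Trim13. Map3k11 and Trim13 were at 0.57 and 0.26 log2 fold change. These genes, with Kcnj15 and Kcnj16, reached the filter in all libraries of 1 group and in none of another, so a difference was built into their testing.

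Among the HCN genes, Hcn2 and Hcn4 were higher with the mix and Hcn3 was lower. Hcn2, whose channel responds strongly to cyclic AMP and is linked to inflammatory pain, was at 128, 126, 121 and 118 CPM with the mix, against 93.5, 83.4, 89.5 and 92.5 CPM with the control ASO and 87.0, 74.3, 77.9 and 69.3 CPM in untransfected cultures. Its mix libraries were above all 8 others, and Hcn2 rose by 0.46 ± 0.06 (adjusted p = 4.34e-06). Hcn4, the slowest isoform, was at 32.5, 39.9, 32.8 and 29.2 CPM with the mix, against 23.5, 21.8, 25.5 and 23.7 CPM with the control ASO, and rose by 0.51 ± 0.09.

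Hcn3 was at 75.1, 82.3, 71.8 and 71.1 CPM with the mix, against 92.2, 88.1, 91.0 and 75.3 CPM with the control ASO. It fell by 0.20 ± 0.06, which was not called without mouse 1 or 3 or without mouse as a term (highest adjusted p = 0.143), and 17.1% of its exon length overlaps Pklr on the other strand. Of 3 tested HCN partner genes all were lower, among them Pex5l, which steers HCN channels to the membrane (-0.22 ± 0.07). The list is short, and 28.8% of all tested genes were lower.

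**Figure D4:**
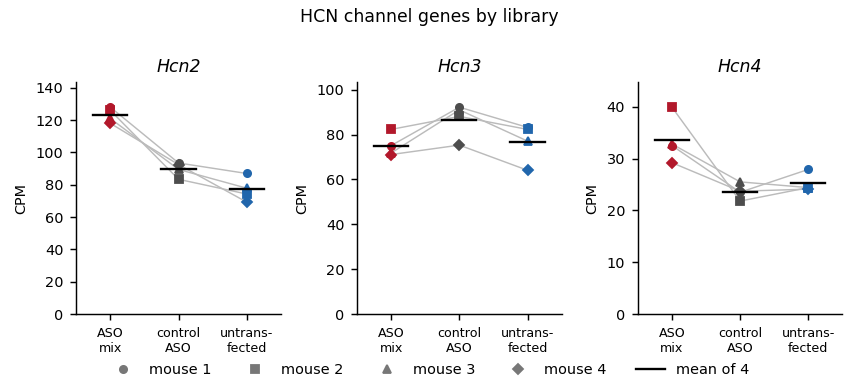
CPM in each library for Hcn2, Hcn3 and Hcn4 in the 3 conditions, ASO mix at the left and untransfected at the right; symbols mark mice, grey lines join libraries of 1 mouse and bars are means of 4. Hcn2 is at 118 to 128 CPM with the mix, above all 8 other libraries.

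Other genes that handle potassium or repress channel genes lie outside the symbol rule. Of 10 genes of the sodium-potassium pump and potassium cotransport, 5 were higher and 3 lower with the mix. The pump subunit genes Atp1b1 (0.57 ± 0.05) and Atp1b3 (0.67 ± 0.08) were higher. Of 6 genes listed as repressors of channel genes, 5 were lower and none higher, while 28.8% of all tested genes were lower. Among the lower ones were Kdm1a (-0.42 ± 0.07), Sin3a (-0.46 ± 0.08) and Rcor1 (-0.36 ± 0.07). Rest itself was at 23.2 ± 3.90 CPM with the mix and 27.6 ± 0.998 CPM with the control ASO (-0.26 ± 0.08).

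The second comparison sets the control ASO against cultures that were not transfected, so the transfection and the ASO cannot be told apart in it. It shares its control ASO libraries with the first comparison. Of 81 tested members, 17 were higher and 6 lower with the control ASO, and among all tested genes 10.5% were higher and 13.7% lower (members 21% and 7.41%). By at least 2-fold, 1 member was higher and 3 were lower, against 0.832% and 3.69% of all tested genes. The count of higher members was unstable. It was 4 without mouse 3 or without mouse as a term, was 9, 10 and 11 without mice 1, 2 and 4, and was 6, beside 6 lower, with scaling on pan-neuronal markers. Under that scaling 50% of called members and 27.2% of all called genes were higher. Calls held in every alternative for 2 of the higher and 4 of the lower members.

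Kcnf1 was the 1 higher member past a 2-fold change. It was at 7.67, 7.37, 8.74 and 6.55 CPM with the control ASO, against 3.28, 3.86, 3.73 and 3.21 CPM in untransfected cultures. No library overlapped, and Kcnf1 rose by 1.11 ± 0.14 (adjusted p = 6.82e-06). Smaller rises, each but that of Kcnt1 lost on leaving out at least 1 mouse, were called for Kcnc4 (0.34 ± 0.08), Kcnt1 (0.33 ± 0.08), Kcnd1 (0.23 ± 0.07), Kcnd3 (0.21 ± 0.05), Kcng2 (0.35 ± 0.10) and Kcnh6 (0.24 ± 0.07), and for Kcnab2 (0.19 ± 0.05) and Hcn2 (0.22 ± 0.06). Kcnt1 was at 58.1, 61.0, 62.1 and 49.4 CPM with the control ASO, against 49.1, 47.9, 48.1 and 37.9 CPM in untransfected cultures, without overlap, and its call was lost without mouse as a term (adjusted p = 0.191).

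Falls with the control ASO included Kcnn4, Kcnk5 and Kcnj15, each past 2-fold. Kcnn4 was at 3.33, 5.85, 4.26 and 3.65 CPM with the control ASO, against 12, 12, 11.7 and 13.2 CPM in untransfected cultures, and fell by 1.53 ± 0.16 (adjusted p = 8.96e-07). Kcnk5 was at 2.55 ± 0.772 CPM with the control ASO and 7.61 ± 2.10 CPM in untransfected cultures, and fell by 1.58 ± 0.22. Kcnj15 had 4, 6, 7 and 10 counts with the control ASO, against 32, 23, 14 and 30 in untransfected cultures (-1.80 ± 0.40). It reached the low-count filter in all untransfected libraries but in only 1 control ASO library, which favoured a fall. Fibroblast markers (9 of 12 lower, none higher) and Schwann cell markers (10 of 13 lower) fell beside Kcnn4, Kcnk5 and Kcnj15. The part of these markers' cells in the falls was not tested. Kcnip1 was at 5.85, 6.86, 7.25 and 6.74 CPM with the control ASO, against 9.44, 9.86, 11.6 and 10.1 CPM in untransfected cultures, and fell by 0.62 ± 0.10. Kcnma1 (-0.29 ± 0.06) and Kcnb2 (-0.22 ± 0.07) were also lower. The Kcnb2 call was lost in 6 alternatives, among them leaving out mouse 1, 2 or 3, and the Kcnma1 call without mouse as a term and on removal of the length and GC trend (highest adjusted p = 0.194).

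**Figure D5:**
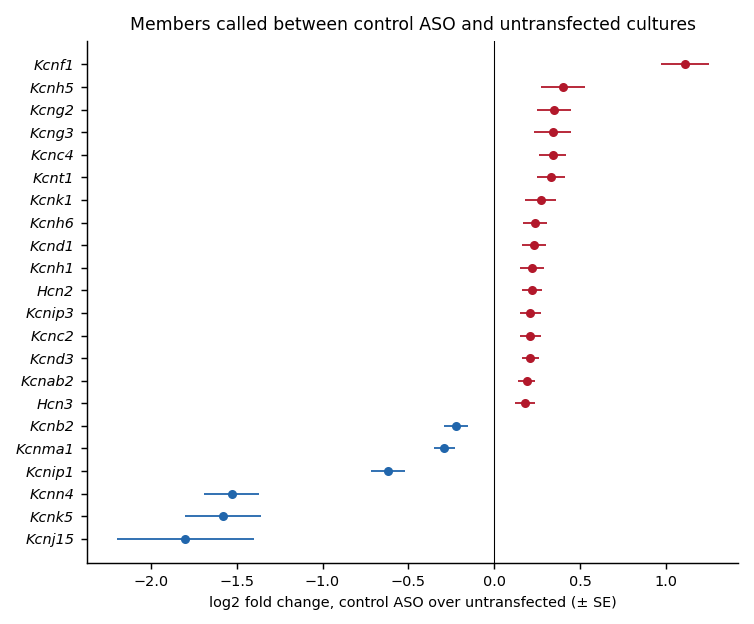
Log2 fold change of the control ASO over untransfected cultures, with SE as bars, for members called in this comparison. Kcnf1 stands highest at 1.11, and Kcnj15, Kcnk5 and Kcnn4 lowest at -1.80, -1.58 and -1.53.

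The third comparison sets the ASO mix against untransfected cultures and shares libraries with both others. Of 81 tested members, 42 were higher and 11 lower, while 30.1% of all tested genes were higher and 31.1% lower (members 51.9% and 13.6%). In either direction 65.4% of the members and 61.2% of all tested genes changed. Libraries did not overlap for 38 of the 81 tested members, all of them called, a share near the 46% of all tested genes. Scaling on pan-neuronal markers, which moved the median of all genes by -0.26, gave 30 higher and 24 lower, or 55.6% of called members higher against 25.7% of all called genes. Without mouse 4, 42 were higher and 14 lower, or 75% of called members higher against 48.5% of all called genes. In this comparison 12 members were higher and 4 lower by at least 2-fold, past which 6.98% of all tested genes were higher and 6.4% lower. Kcnk7 and Kcnrg, among the 12, reached the low-count filter in no untransfected library, and Kcnj15 and Kcnj16, among the 4, in no mix library. Those differences were built into the testing. Kcnip2 (1.49 ± 0.13), Kcns1 (1.36 ± 0.13), Kcna2 (1.01 ± 0.09), Kcnc1 (0.95 ± 0.08), Kcnt1 (0.79 ± 0.08), Kcnip3 (0.69 ± 0.06), Hcn2 (0.68 ± 0.06), Kcnd1 (0.58 ± 0.07), Kcnh2 (0.58 ± 0.07) and Kcnab2 (0.52 ± 0.05) had the smallest p among higher members. Each was higher in all 4 mice, with no overlap of libraries.

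Kcnn4 fell by 3.47 ± 0.19 against untransfected cultures (adjusted p = 1.46e-10), the smallest p of any member there, and Kcnk5 by 3.11 ± 0.26. Kcnma1 was at 71.7 ± 5.79 CPM with the mix and at 119, 127, 115 and 83.6 CPM in untransfected cultures, and fell by 0.62 ± 0.06. Kcnj15 (-2.45 ± 0.44) and Kcnj16 (-3.20 ± 0.61) were also lower, but reached the low-count filter in no mix library. They reached it in all untransfected libraries, so a fall was built into their testing. The remaining lower members named by rule were Kcng3 (-0.60 ± 0.12), Kcnk10 (-0.57 ± 0.16), Kcnk12 (-0.49 ± 0.11), Kcnk13 (-0.38 ± 0.08) and Kcnj6 (-0.35 ± 0.11). Calls were lost on removal of the length and GC trend for Kcnk10 (adjusted p = 0.169) and Kcnj6 (adjusted p = 0.494), without mouse 3 for Kcnj6, and without mouse as a term for Kcnk13 (adjusted p = 0.146). Kcnf1 was at 4.93 ± 0.529 CPM with the mix and 3.52 ± 0.324 CPM in untransfected cultures (0.49 ± 0.14). This call was lost with scaling on pan-neuronal markers (adjusted p = 0.178). Kcnf1 had been lower with the mix than with the control ASO and higher with the control ASO than in untransfected cultures. Hcn3 (-0.03 ± 0.06), Kcnip4 (-0.04 ± 0.07), Kcnh6 (-0.02 ± 0.07) and Kcnc4 (0.09 ± 0.08), all abundant, were not called. Kcnip1 was not called either (-0.17 ± 0.10), having been higher with the mix than with the control ASO and lower with the control ASO than in untransfected cultures.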

How the data were processed

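Gene-level counts were deposited by the authors as 1 table of raw, unnormalised counts for 12 libraries. Per the labels, total RNA was made into stranded libraries and read as pairs of 150 bases. Per the submitters' processing notes, bcl2fastq 2.17, STAR and HTSeq were used with GRCm38 (mm10), with settings (strand included) not given in the sources used here. Of 48795 IDs, 48349 matched a symbol in GENCODE mouse release 21, and unmatched IDs held at most 0.04584% of a library's counts.

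Counts were tested with edgeR 4.0.16 (R 4.3.3; robust quasi-likelihood, filterByExpr by group at about 0.48 CPM, TMM scaling) over all 12 libraries with group and mouse as terms, and p-values were adjusted over 16831 genes. The standard error is the fold change divided by the square root of F. Replicate numbers mark mice, per the series' design text: same-mouse libraries correlated in their deviations from group means at 0.138 to 0.557, each best with its own mouse in 24 of 24 cases. The 4 cultures of a group are separate preparations.

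Alternatives were a fit without mouse, DESeq2 1.42.0, limma-voom 3.58.1, other scalings and filters, removal of a length and GC trend, removal of 3 rRNA loci, a fit to the compared groups alone, leaving out each mouse, and a fold change of at least 1.5. Tests were checked on simulated data. Named members were up to 10 per direction and comparison by p, the 10 most abundant per kilobase, a list of sensory neuron channels and members with a library far from its group. Hcn4, Kcna3, Kcnh3, Kcnh4, Kcnh7, Kcnj12, Kcnj14, Kcnk7, Kcnmb1, Kcnn3, Kcnrg and Kcnv1 were added after their values were seen. So were the scarce or uncalled Kcna10, Kcnab3 and Kcnk3. The members and all lists were chosen with earlier results of these data known. Values of some members and partner genes are not reported here.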

Additional observations from a re-analysis of the deposited data

Results flagged for a closer look

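In 165 groups of 4 libraries, 1 for each named tested member and condition, 10 held a library far from the other 3. Chance flags about 1 in 20 groups, but some of these members were chosen after their values were seen, so the count cannot be read against it. Kcnk13, a K2P channel gene, was flagged in mouse 4 in both conditions without the mix, at 21.4 CPM with the control ASO (the other mice 33.7 to 34.6) and 18.7 CPM untransfected (the others 34.9 to 37.4). Mouse 4 was also the low library among untransfected cultures for Kcnt1, at 37.9 CPM (the others 47.9 to 49.1), and for Kcnab1, at 62.5 CPM (the others 76.7 to 78.7). With the mix, Kcnk5 was at 2.37 CPM in mouse 4 (the others 0.355 to 0.700), Kcnj15 at 0.418 CPM in mouse 2 (the others 0.122 to 0.152), Kcna3 at 2.04 CPM in mouse 2 (the others 2.99 to 3.16) and Kcns3 at 19.5 CPM in mouse 3 (the others 17.2 to 17.5). Among untransfected cultures, Hcn4 was at 27.9 CPM in mouse 1 (the others 24.1 to 24.4) and Kcnq5 at 14.6 CPM in mouse 1 (the others 12.4 to 12.6).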

How the results depend on the processing

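Leaving out each mouse gave 27 to 36 members higher and 10 to 16 lower for the mix against the control ASO, 4 to 11 higher and 5 to 6 lower for the control ASO against untransfected cultures, and 36 to 42 higher and 10 to 14 lower for the mix against untransfected cultures. Without mouse as a block, 4 members were higher with the control ASO than in untransfected cultures, against 17 with it. Scaling on pan-neuronal markers gave 24 lower for the mix against the control ASO, 6 higher for the control ASO against untransfected cultures and 24 lower for the mix against untransfected cultures. A fold change of at least 1.5 left 17 higher and 6 lower for the mix against the control ASO, 1 higher for the control ASO against untransfected cultures, and 24 higher and 6 lower for the mix against untransfected cultures. Library size alone gave 28 higher and 19 lower for the mix against the control ASO. Among the members named here, for the mix against the control ASO, direction turned with the length and GC trend removed for Kcnab1 (0.17), and with pan-neuronal scaling for Kcnb2 (-0.03) and Kcnd3 (-0.14). For the mix against untransfected cultures it turned with the trend removed for Kcnab1 (0.28) and Kcnb2 (0.38), and with pan-neuronal scaling for Kcnq3 (-0.03) and Kcnq5 (-0.03). The cause was not tested. Depth limits the 16 members that could not be tested, which had 1 to 80 counts over all libraries.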
